A study of Mus musculus with 13 samples.

Results

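The neural homeobox factors described here are 52 genes of the DLX, LIM (Lhx), sine oculis (Six2 to Six6), ONECUT, OTX, EMX, MEIS, PBX, IRX, POU, MSX, EN, GBX, PHOX, BARHL and ZFHX families. The list was set by gene name, but with earlier results of these data known. All 52 were found among the 54532 gene identifiers of the count table, and all are annotated as protein coding, on 17 chromosomes. None lies in a Hox cluster. RNA was sequenced from 13 untreated, flash-frozen mouse small cell lung cancer tumours: 6 labelled sgControl RPP and 7 labelled sgKdm6a RPP. Both groups arose in Cas9 mice of a BL6J background in which Cas9 stays off until a stop cassette is removed, and all 13 tumours carry the label RPP. The labels do not spell RPP out; as background, the name is used for mouse models that lose Rb1, Trp53 and Rbl2. The sgKdm6a tumours additionally received a guide against Kdm6a, a histone H3 lysine 27 demethylase also called UTX. The sources used here do not give the age of the mice, the cell type in which Cas9 was switched on or the number of animals. Of the 7 sgKdm6a tumours, 6 form 3 pairs that share a title number (replicates 1 and 2, 4 and 5, 6 and 7). Within a pair the titles differ only by a suffix after the number (L and R, or 1 and 2). The labels do not say whether a number marks an animal, nor that the tumours came from separate animals, so a p-value measures only the spread between these tumours. Each tumour was sequenced whole, so fewer cells of a type and less RNA per cell cannot be told apart in any value below.

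Homeobox genes encode transcription factors that bind DNA through a homeodomain, and in the embryo combinations of them set the identity of neurons by region and by type. LIM, POU, DLX and PHOX factors act mostly in single neuronal lineages, whereas MEIS and PBX proteins pair with many other homeodomain factors and are used in many tissues. In vertebrate embryos their start sites commonly lie in CpG islands that carry H3 lysine 27 trimethylation where the gene is silent, the mark that KDM6A removes. Small cell lung cancer is a neuroendocrine tumour that expresses many neuronal genes.

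Start-site sequence was available for 36 of the 52 genes, as 300 bases reaching from 250 before to 50 after the start, from RefSeq on GRCm38.p6. These stretches were rich in CpG: the median gene held 21.5 CpG pairs (range 4 to 57) against a median of 7 over 27018 genes, and 33 of the 36 lay above that median. The median GC content was 65.8%, against 52.7% over all genes. These comparisons, and those of motifs below, are between unlike sets. All 36 are protein coding, with the start nearest to the deposited gene start used. The 27018 were not limited by gene type, with the start of lowest coordinate used. For some of the 36 the nearest start was far off, by 772000 bases for Zfhx3 and 9657 for Lhx4. The 4 shown are those of Lhx1 and Pou3f2, which had the widest ranges of log2 CPM between tumours, and of Meis1 and Msx1, whose levels differed most between genotypes by the unadjusted p. Each reads 5′ to 3′ along the gene, which for all 4 is the minus strand, with every CpG in capitals.

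Lhx1 (chr11:84525485-84525784, 31 CpG): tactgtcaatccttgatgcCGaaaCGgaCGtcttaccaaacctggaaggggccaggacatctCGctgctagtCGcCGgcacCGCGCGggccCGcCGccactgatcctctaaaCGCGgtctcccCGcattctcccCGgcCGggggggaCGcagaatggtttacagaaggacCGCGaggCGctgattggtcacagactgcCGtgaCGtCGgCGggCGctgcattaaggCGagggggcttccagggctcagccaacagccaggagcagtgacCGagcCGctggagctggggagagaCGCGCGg
Pou3f2 (chr4:22488317-22488616, 24 CpG): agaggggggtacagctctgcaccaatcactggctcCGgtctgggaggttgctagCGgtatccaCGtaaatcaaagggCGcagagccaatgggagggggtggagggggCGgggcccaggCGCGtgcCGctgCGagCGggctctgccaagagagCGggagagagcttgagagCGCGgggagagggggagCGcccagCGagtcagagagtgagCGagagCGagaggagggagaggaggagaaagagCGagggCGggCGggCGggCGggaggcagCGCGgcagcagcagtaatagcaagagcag
Msx1 (chr5:37824536-37824835, 29 CpG): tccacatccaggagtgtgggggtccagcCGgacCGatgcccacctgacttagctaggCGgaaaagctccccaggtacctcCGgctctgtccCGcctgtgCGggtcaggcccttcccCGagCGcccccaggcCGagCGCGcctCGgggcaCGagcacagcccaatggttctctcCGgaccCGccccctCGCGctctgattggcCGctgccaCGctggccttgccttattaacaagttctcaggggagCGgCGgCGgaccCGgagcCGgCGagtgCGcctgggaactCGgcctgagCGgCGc
Meis1 (chr11:19018920-19019219, 15 CpG): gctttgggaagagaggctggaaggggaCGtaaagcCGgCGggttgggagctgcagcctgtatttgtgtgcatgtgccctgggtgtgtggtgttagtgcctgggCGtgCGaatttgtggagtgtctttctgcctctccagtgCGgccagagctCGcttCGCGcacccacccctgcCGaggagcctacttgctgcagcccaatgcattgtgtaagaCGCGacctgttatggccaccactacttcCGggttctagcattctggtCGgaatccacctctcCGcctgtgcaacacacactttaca

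Meis1 held the fewest CpG pairs of the 4. On either strand, the homeodomain core TAATTA was present in 4 of the 36 stretches (11.1%, against 5.4% of all genes). The E-box CAGCTG, a sequence bound by bHLH factors, was present in 5 (13.9%, against 16.2%). The E-box CAGATG was present in 1 (2.78%, against 17.3%). The motifs do not overlap, and none of the 3 occurs in the 4 stretches shown.

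Total counts were 16835726 to 22910187 per tumour, at which 3 counts, taken as the detection floor, equal 0.131 to 0.178 CPM (the count scaled to library size). Kdm6a itself ranged over 51.7 to 112 CPM in sgControl tumours and 42.7 to 91.3 CPM with the Kdm6a guide, a log2 difference of -0.14 (SE 0.22; adjusted p = 0.887 in edgeR). A count over the whole gene does not read small edits, so it does not check the guide labels. The groups also differed in Y-linked genes, with median list means of 5.29 log2 CPM in sgControl and -3.13 in sgKdm6a tumours. Of the sgKdm6a tumours only sgKdm6a 3 was high in them. The Kdm6a difference between genotypes cannot be fully told apart from this imbalance. The 12 neuroendocrine marker genes averaged 7.14 to 8.41 log2 CPM in sgControl and 6.64 to 8.79 in sgKdm6a tumours. The lowest of these marker means was that of sgKdm6a 3. Lung and stromal tissue content, the mean log2 CPM of alveolar, endothelial, fibroblast and macrophage markers, was 8.53 in sgControl 6, 4.47 to 5.02 in the other sgControl tumours and 2.72 to 4.98 in sgKdm6a tumours, with the lowest value again in sgKdm6a 3. Within those 5 lists, 31 of 38 genes had an unadjusted edgeR p under 0.05 with lower values in sgKdm6a tumours, against 6.97% of all genes. The number higher was 0, against 3.18%. In each of the 5 lists sgControl 6 had the highest mean, and its part in these counts was not tested. C1qa, C1qb and Csf1r were counted as lower although their medians were higher in sgKdm6a tumours.

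Of the 52 homeobox genes, 40 reached 1 CPM in a tumour or more, 14 of them in all 13 tumours and 26 in some. The other 12 stayed below 1 CPM throughout, with a highest value of 0.879 CPM (17 counts): Dlx2, Dlx3, Dlx4, Lhx4, Onecut3, Otx2, Emx2, Irx4, Irx6, Msx2, Pou3f3 and En1. Among the 26, 10 genes reached 1 CPM in 1 to 3 tumours and 16 in 4 to 12. A sgControl tumour held 19 to 31 genes at 1 CPM or more, and a sgKdm6a tumour 20 to 28. The richest were sgControl 1 with 31 genes, sgControl 2 with 29 and sgKdm6a 1 with 28. Of the 40 genes, 21 were highest in a sgKdm6a tumour and 19 in a sgControl tumour, where sgKdm6a tumours made up 53.8% of the 13.

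**Figure D1:**
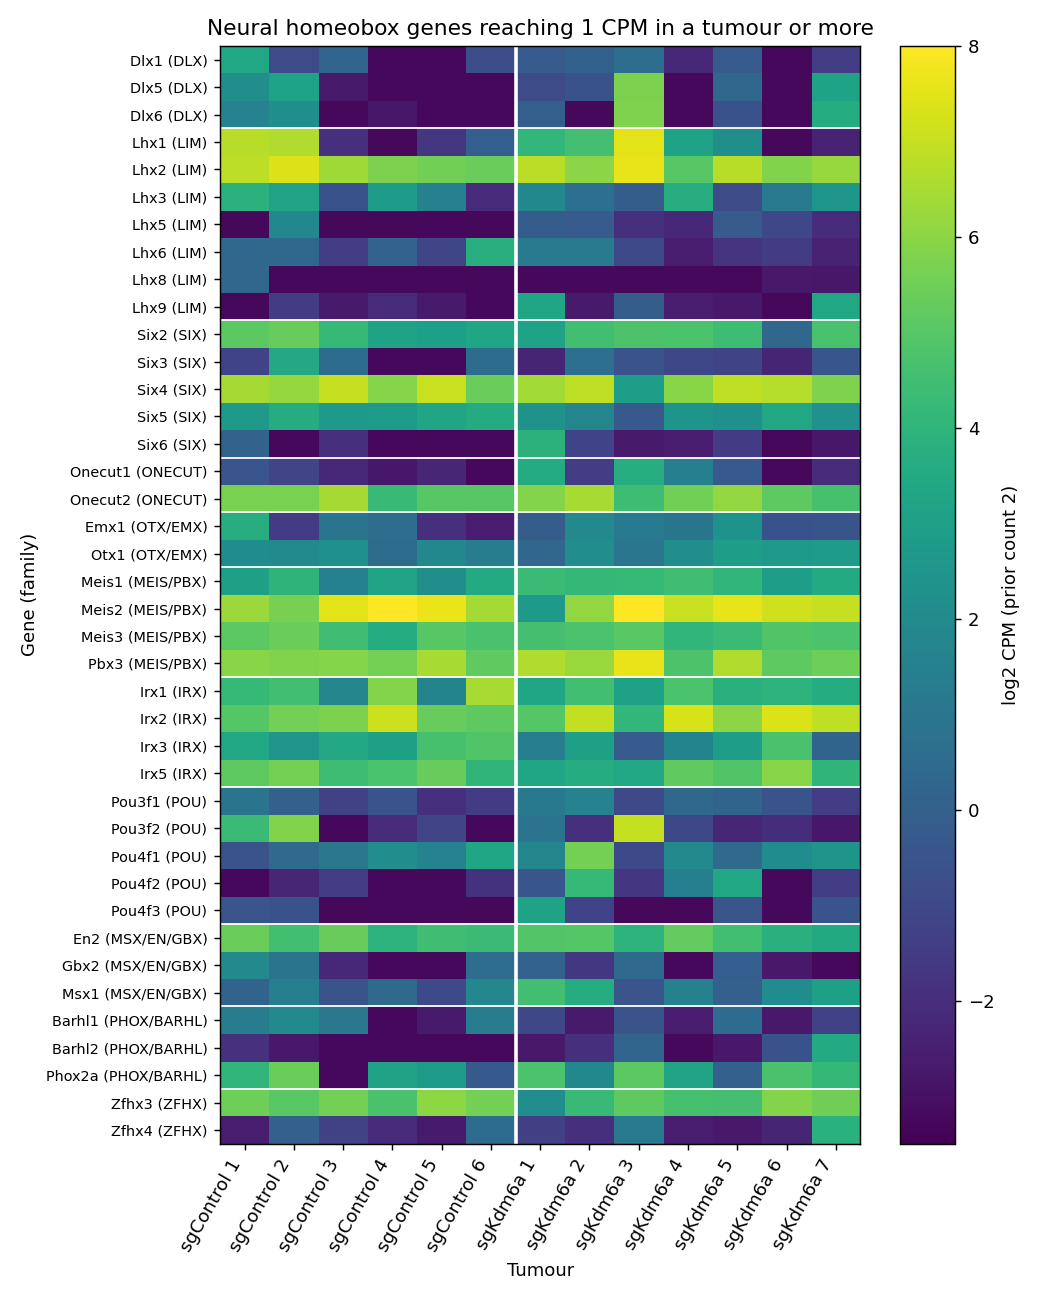
Level of the 40 genes that reached 1 CPM, as log2 CPM (prior count 2, color), by tumour (columns, the white vertical line dividing the 6 sgControl from the 7 sgKdm6a tumours) and by family (rows, white horizontal lines). Genes such as Lhx2, Meis2 and Irx2 were high in most tumours, whereas Lhx1, Pou3f2, Dlx5 and Dlx6 ranged from 0 CPM in some tumours to 52.9 CPM or more in sgKdm6a 3.

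The 6 genes of highest level per length were Irx2, Lhx2, Pbx3, Meis2, Six2 and Irx1, with mean deposited FPKM (fragments scaled by gene length and library size) of 22.4, 18.9, 10.9, 10.7, 8.59 and 8.39 over the 13 tumours. All 6 were above 1 CPM in every tumour.

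Irx2 and Irx1 encode Iroquois factors, which pattern the nervous system and the developing lung. Irx2 was at 30.9, 43.9 and 138 CPM (lowest, median and highest) in sgControl and at 17.2, 119 and 169 CPM in sgKdm6a tumours. In sgControl, tumour 4 stood above the rest, and in sgKdm6a, tumours 2, 4, 6 and 7 were at 119 CPM or above while tumours 1 and 3 were near or below the lowest control. Irx1 was at 3.13, 20.3 and 90.7 CPM in sgControl and at 8.43, 14.0 and 26.8 CPM in sgKdm6a tumours. Its highest value was in sgControl 6, the tumour with the most lung and stromal RNA. The part of that tissue in the Irx1 level was not tested.

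Lhx2, a LIM factor of forebrain, eye and hair follicle progenitors, was at 41.7, 67.4 and 171 CPM in sgControl and at 32.2, 73.7 and 199 CPM in sgKdm6a tumours. The groups overlapped over nearly their whole range, with sgControl 2 and sgKdm6a 3 at the top of each. Six2, which keeps kidney progenitors undifferentiated, was at 7.76, 14.1 and 39.9 CPM in sgControl and at 1.14, 22.5 and 27.6 CPM in sgKdm6a tumours. The value of 1.14 CPM belonged to sgKdm6a 6, whereas its title-number partner, sgKdm6a 7, was at 25.6 CPM.

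Pbx3 and Meis2 encode TALE factors, the usual DNA-binding partners of other homeodomain proteins. Pbx3 was at 36.5, 58.1 and 90.1 CPM in sgControl and at 27.4, 76.8 and 198 CPM in sgKdm6a tumours. In sgKdm6a, 3 of 7 tumours lay above every control and 2 below. Meis2 was at 50.01, 136 and 271 CPM in sgControl and at 6.55, 132 and 255 CPM in sgKdm6a tumours. Only sgKdm6a 1 lay below the controls.

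The next genes by FPKM were Irx5 (8.27), Lhx1 (7.95), Meis3 (7.81), Six4 (7.08), Phox2a (6.85) and En2 (6.59). The steadiest of the tested genes was Meis3, with a within-genotype SD of 0.49 on the log2 CPM scale and values of 12.2 to 42.6 CPM, followed by En2, a midbrain and hindbrain factor, with an SD of 0.63. Onecut2, a factor of liver, pancreas and neuronal development, also stayed within 19.7 to 90.1 CPM.

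The 30 genes with enough counts to be tested varied widely between tumours of 1 genotype. Their median within-genotype SD was 1.42 on the log2 CPM scale, against 0.57 over the 16575 genes tested. The SD of 13 of the 30 (43.3%) exceeded 1.51, the 90th percentile over all genes. Their median level was also lower, at 2.63 log2 CPM against 4.52 over all genes. The part of the level in the spread was not tested. The widest were Lhx1 (SD 4.15), Dlx6 (3.21), Dlx5 (3.17) and Phox2a (2.55).

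Lhx1, a LIM factor of spinal interneurons, cerebellar Purkinje cells and kidney, was at 0, 0.535 and 109 CPM in sgControl and at 0, 8.60 and 187 CPM in sgKdm6a tumours. It was at 99.2 CPM or more in sgControl 1, sgControl 2 and sgKdm6a 3, lay between 4.52 and 23.2 CPM in sgKdm6a 1, 2, 4 and 5, and stayed below 1 CPM in the other 6 tumours. The groups overlapped.

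Pou3f2 (Brn2), a POU factor of cortical and hypothalamic neurons, was at 0, 0.247 and 56.5 CPM in sgControl and at 0.046, 0.165 and 127 CPM in sgKdm6a tumours. The 3 tumours highest in Lhx1 were also the 3 highest in Pou3f2, with 20.3 CPM in sgControl 1, 56.5 CPM in sgControl 2 and 127 CPM in sgKdm6a 3. Among the remaining 10 tumours the highest value was 1.71 CPM, in sgKdm6a 1.

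Dlx5 and Dlx6 are neighbours on chromosome 6, 9237 bases apart, and serve in forebrain inhibitory neurons and in the craniofacial skeleton. Dlx5 was at 0, 0.0273 and 8.84 CPM in sgControl and at 0, 0.548 and 52.9 CPM in sgKdm6a tumours. Dlx6 was at 0, 0.0216 and 4.60 CPM in sgControl and at 0, 0.558 and 55.5 CPM in sgKdm6a tumours. The 4 tumours above 2 CPM were the same for both genes: sgControl 1, sgControl 2, sgKdm6a 3 and sgKdm6a 7. Because the libraries did not keep the strand, reads of Dlx6 cannot be told apart from those of the antisense transcript Dlx6os1 where they overlap. The pairs Dlx1 with Dlx2 and Dlx3 with Dlx4 lie 9427 and 15151 bases apart, and of these 4 genes only Dlx1 reached 1 CPM, with 10.6 CPM in sgControl 1.

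Phox2a, a factor of noradrenergic and cranial motor neurons, was at 0, 7.79 and 42.2 CPM in sgControl and at 0.913, 17.5 and 34.7 CPM in sgKdm6a tumours. It was found in more tumours than the genes above, at 1 CPM or more in 10 of 13, and was lowest in sgControl 3, sgControl 6 and sgKdm6a 5. Phox2a shares 95 bases with Inppl1 on the opposite strand.

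The POU4F genes specify sensory and retinal ganglion neurons. Pou4f2 was at 0, 0.0511 and 0.273 CPM in sgControl and at 0, 0.635 and 18.1 CPM in sgKdm6a tumours. It exceeded 1 CPM in sgKdm6a 2, 4 and 5 alone, at 18.1, 2.68 and 10.4 CPM. Pou4f1 reached 48.9 CPM in sgKdm6a 2 and no more than 9.60 CPM elsewhere, and Pou4f3 reached 8.65 CPM in sgKdm6a 1 and no more than 0.627 CPM elsewhere.

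**Figure D2:**
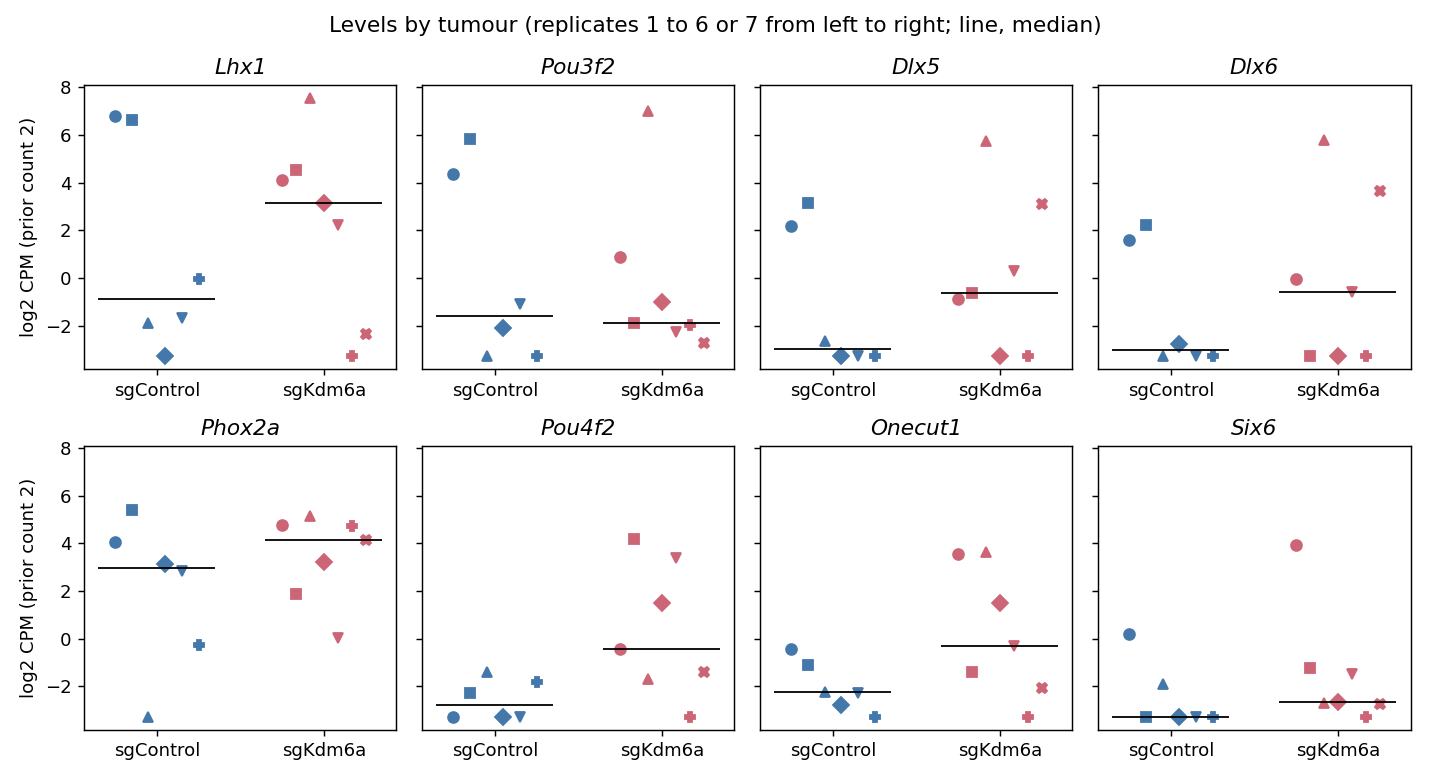
Level of 8 genes that ranged widely between tumours, as log2 CPM (prior count 2; y axis), by genotype (x axis). Each point is 1 tumour, replicates run from left to right with their own symbol, and the line is the group median; sgControl 1 and 2 and sgKdm6a 3 are the highest tumours for Lhx1 and Pou3f2, while Pou4f2 and Onecut1 stay below 1 CPM in all 6 sgControl tumours.

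Further genes peaked in 1 or 2 tumours. Six6, a retina and pituitary factor, was at 14.9 CPM in sgKdm6a 1 and at or below 1.03 CPM elsewhere. Lhx9 was at 9.48 CPM in sgKdm6a 1 and 10.3 CPM in sgKdm6a 7, and below 1 CPM elsewhere. Barhl2 (11.3 CPM) and Zfhx4 (14.4 CPM) were highest in sgKdm6a 7. In sgControl, Emx1, a cortical factor, was highest in tumour 1 (12.6 CPM), Six3, a forebrain factor, in tumour 2 (10.8 CPM) and Lhx6, a factor of cortical interneurons, in tumour 6 (12.9 CPM). The peaks named here lay in tumours of both genotypes. Of the 10 genes that reached 1 CPM with too few counts to be tested, 8 were highest in a sgKdm6a tumour and 2 in a sgControl tumour. Among all 1986 such genes, 51.6% were highest in a sgKdm6a tumour. This difference was not tested.

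The contrast of sgKdm6a with sgControl tumours asks whether the Kdm6a guide went with a change in these genes. In the edgeR quasi-likelihood test, 0 of the 30 tested homeobox genes passed an adjusted p of 0.05, against 0 of 16575 genes (0%), and the smallest adjusted p among them was 0.425. With DESeq2, 0 of the 29 with an adjusted p passed, against 65 of 15833 genes (0.411%). Before adjustment, edgeR gave 2 of 30 genes (6.67%) a p under 0.05 with higher values in sgKdm6a tumours, Meis1 and Msx1, against 527 genes (3.18%). The number lower was 0, against 1156 genes (6.97%). The median log2 fold change of the 30 was -0.14, against -0.0017 over all genes, and 12 of 30 (40%) were above 0, against 49.7%. None of the 30 had groups that did not overlap, against 47 genes (0.284%).

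Meis1, a TALE factor of haematopoietic and neural progenitors, was at 2.84, 8.68 and 15.8 CPM in sgControl and at 7.56, 17.9 and 21.9 CPM in sgKdm6a tumours. In 5 of 7 sgKdm6a tumours it lay above every control, with tumours 6 and 7, which share a title number, inside the control range. The log2 fold change was 0.91 (SE 0.39), with an adjusted p of 0.459 in edgeR (0.0347 before adjustment). The two-sided exact permutation test over the 1716 splits of the tumours gave p = 0.0256, and p = 0.0667 with tumours of 1 title number averaged. Meis1 and Msx1 were given this test for their unadjusted edgeR p in the same tumours, so it is no independent support. Leaving out 1 tumour at a time gave log2 fold changes of 0.73 to 1.18 and unadjusted edgeR p up to 0.0726, reached without sgControl 5. With the counts of 1 title number summed the unadjusted edgeR p was 0.0822, and with the Y-linked genes as a term 0.0884.

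Msx1, a factor of neural crest, limb and dorsal neural tube, was at 0.417, 1.16 and 3.45 CPM in sgControl and at 0.621, 4.18 and 22.5 CPM in sgKdm6a tumours. In 4 of 7 sgKdm6a tumours it lay above every control, highest in tumours 1 and 2, a pair with 1 title number. The log2 fold change was 2.21 (SE 0.83), with an adjusted p of 0.425 in edgeR (0.0183 before adjustment). The two-sided exact permutation test gave p = 0.0845, and p = 0.2 with tumours of 1 title number averaged. With a correlation within title numbers, limma-voom gave an unadjusted p of 0.0893. Title numbers were split here by size into a lower series (3 sgControl and 2 sgKdm6a tumours) and a higher series (3 and 5). The 2 sgKdm6a tumours of the lower series are tumours 1 and 2, which share 1 title number. A p-value of the lower series alone treats that pair as separate tumours, so it may overstate the evidence. The labels name no such series. In the lower series the sgControl titles carry a prefix before the number that the sgKdm6a titles lack. The labels do not explain it, and within that series it cannot be told apart from genotype. Within the lower series the log2 fold change of Msx1 was 3.62 and within the higher 0.89, while Meis1 was at 1.13 and 0.81. The unadjusted edgeR p of Msx1 was 0.00332 in the lower and 0.393 in the higher series, and that of Meis1 0.161 and 0.133. The Y-linked marker genes were high in 5 of 6 sgControl tumours, all but sgControl 4, but in 1 of 7 sgKdm6a tumours, sgKdm6a 3. A fit with a term for them separates genotype from the Y-linked genes mainly through those tumours. In sgKdm6a 3, Msx1 was at 0.621 CPM. With that term the log2 fold change of Msx1 was 0.72 (SE 1.68) and that of Meis1 0.93 (SE 0.50), and the unadjusted edgeR p of Msx1 was 0.674. With a term for tissue content, which was lower in most sgKdm6a tumours, the log2 fold changes of Msx1 and Meis1 were 3.36 and 1.22. Leaving out sgKdm6a 1 gave an unadjusted edgeR p of 0.0558 for Msx1, and then 0 of the tested genes were under 0.05.

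On the other side of 0, Barhl1 and Six3 had the lowest log2 fold changes, and Six5 was lower in most sgKdm6a tumours. Barhl1 showed a log2 difference of -2.15 (SE 1.01; adjusted p = 0.494 in edgeR), with 0 to 3.73 CPM in the controls and 0.0497 to 1.32 CPM in sgKdm6a tumours. Six3 was at -2.12 (SE 1.16; adjusted p = 0.567 in edgeR), with 10.8 CPM in sgControl 2 and at most 1.54 CPM elsewhere; without that tumour its log2 fold change was -0.20. Six5, a factor linked to the myotonic dystrophy locus, was at 6.33, 8.31 and 12.4 CPM in sgControl and at 0.724, 4.83 and 10.2 CPM in sgKdm6a tumours, and 6 of 7 sgKdm6a tumours lay below every control. Its log2 fold change was -0.87 (SE 0.45), with an adjusted p of 0.536 in edgeR (0.073 before adjustment). DESeq2 gave Barhl1 and Six5 an unadjusted p under 0.05 (2 genes lower, against 5.91% of all genes) beside Meis1 and Msx1 (2 genes higher, against 4.74%), and none of the 4 passed adjustment.

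The widest genes had the widest errors. Dlx6 was at a log2 fold change of 2.97 (SE 1.97), Dlx5 at 2.03 (SE 1.86) and Lhx1 at -0.02 (SE 1.74), with edgeR adjusted p of 0.653, 0.766 and 0.999. With errors of this size, a difference of several fold was not detectable for these genes in 6 and 7 tumours. The values of Dlx5 and Dlx6 were -3.12 and -2.45 in the lower title series alone, and 10.9 (SE 4.22) and 9.21 (SE 3.39) in the higher. In the higher series the sgControl tumours were at 0 CPM for Dlx5 and at most 0.0433 CPM for Dlx6. Folds against such controls depend on the prior count and are no bounds. The edgeR adjusted p of the latter values was 0.424 and 0.378 (0.0385 and 0.0250 before adjustment). With a term for tissue content they were -2.36 and -0.83, with the series as a term 5.62 and 5.45, and with the Y-linked genes as a term 4.38 and 4.80.

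**Figure D3:**
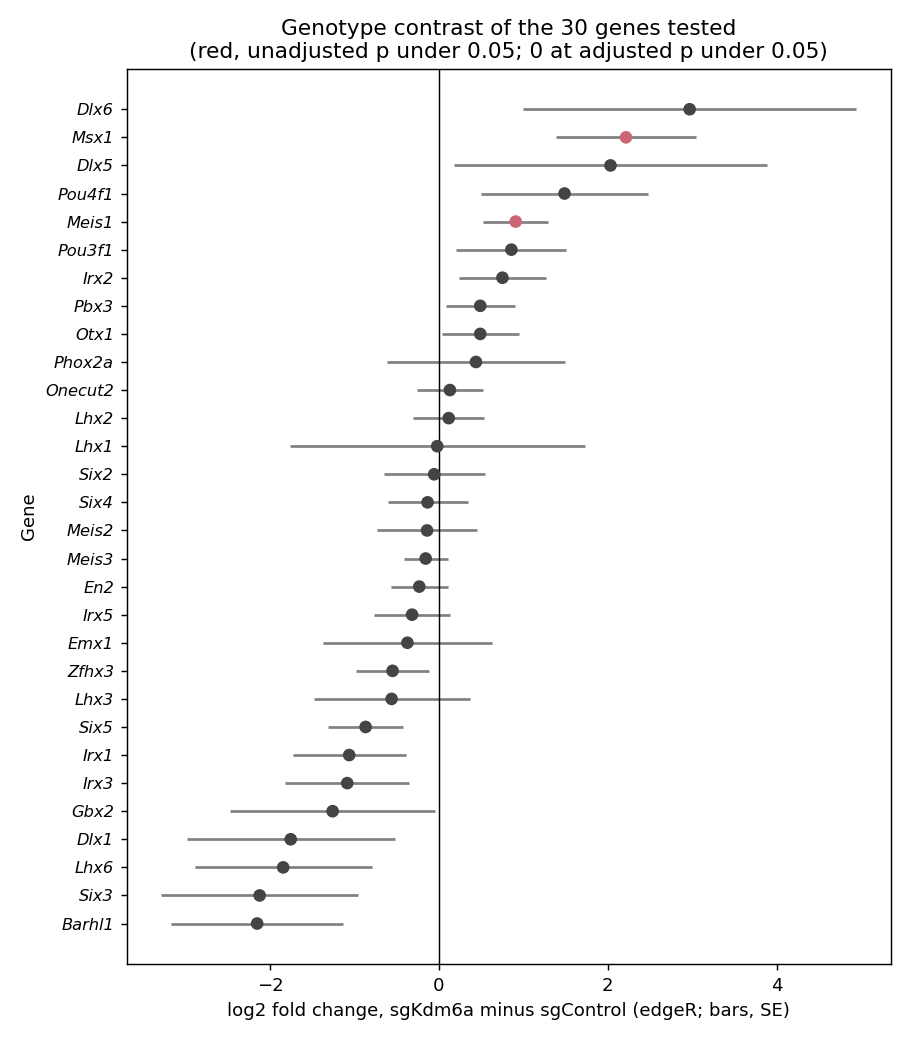
Log2 fold change of the 30 tested genes, sgKdm6a minus sgControl (x axis; edgeR, bars show the SE), ordered by size (y axis). Msx1 at 2.21 and Meis1 at 0.91 (red) had an unadjusted p under 0.05, and 0 genes passed an adjusted p of 0.05.

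The 22 untested genes had too few counts for the filter, and 10 of them still reached 1 CPM somewhere: Barhl2, Lhx5, Lhx8, Lhx9, Onecut1, Pou3f2, Pou4f2, Pou4f3, Six6 and Zfhx4. With no filter on low counts, 8 of the 52 genes (15.4%) were higher with an unadjusted p under 0.05 in edgeR, against 1175 of 33477 genes (3.51%), and 2 were lower, against 6.23%. Folds of such genes depend on the prior count and are no bounds, since the controls are near 0 CPM. Each higher gene rested on 1 to 3 tumours above 1 CPM, apart from Msx1 and Meis1 and from En1 and Otx2, which stayed below 1 CPM. In that fit the log2 fold change was 5.57 for Pou4f2, 5.48 for Barhl2, 5.01 for Lhx9 and 4.22 for Onecut1. The edgeR adjusted p of each was 0.507. Onecut1, a liver and motor neuron factor, was at 11.8 CPM in sgKdm6a 1, 12.5 CPM in sgKdm6a 3 and 2.68 CPM in sgKdm6a 4, and at or below 0.71 CPM in the other 10 tumours. Of the 14 genes given an exact permutation test, Meis1 and Pou4f2 had an unadjusted p under 0.05. Meis1 was among the 14 for its unadjusted edgeR p in the same tumours. Pou4f2 was among the 14 for its wide log2 CPM range among genes that reached 1 CPM. It reached 1 CPM in sgKdm6a tumours alone, so its p is not read as evidence of a difference.

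Tumours that share a title number still differed in these genes. Over the 40 genes, sgKdm6a 1 and 2 differed by more than 2 on the log2 CPM scale in 13 (32.5%, against 10.3% of all genes tested), sgKdm6a 4 and 5 in 7 (17.5%, against 6.89%) and sgKdm6a 6 and 7 in 8 (20%, against 4%). These shares come from unlike sets. The 40 include 10 genes that failed the count filter and entered through the few tumours where they were high, whereas all genes tested passed it. The excess is therefore not read as a trait of the homeobox genes. Among the 18 other pairs of sgKdm6a tumours the number was 6 to 21 with a median of 14, among the 15 sgControl pairs 2 to 17 with a median of 13, and among the 42 pairs between genotypes 4 to 21 with a median of 15. Pairs of 1 genotype and pairs of different genotypes thus covered much the same range. The genes that separated sgKdm6a 1 from 2 included Six6, Pou4f3, Lhx9 and Onecut1, high in tumour 1, and Pou4f2 and Pou4f1, high in tumour 2. In the pair 6 and 7, Dlx5, Dlx6, Lhx9, Barhl2 and Zfhx4 were high in tumour 7.

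**Figure D4:**
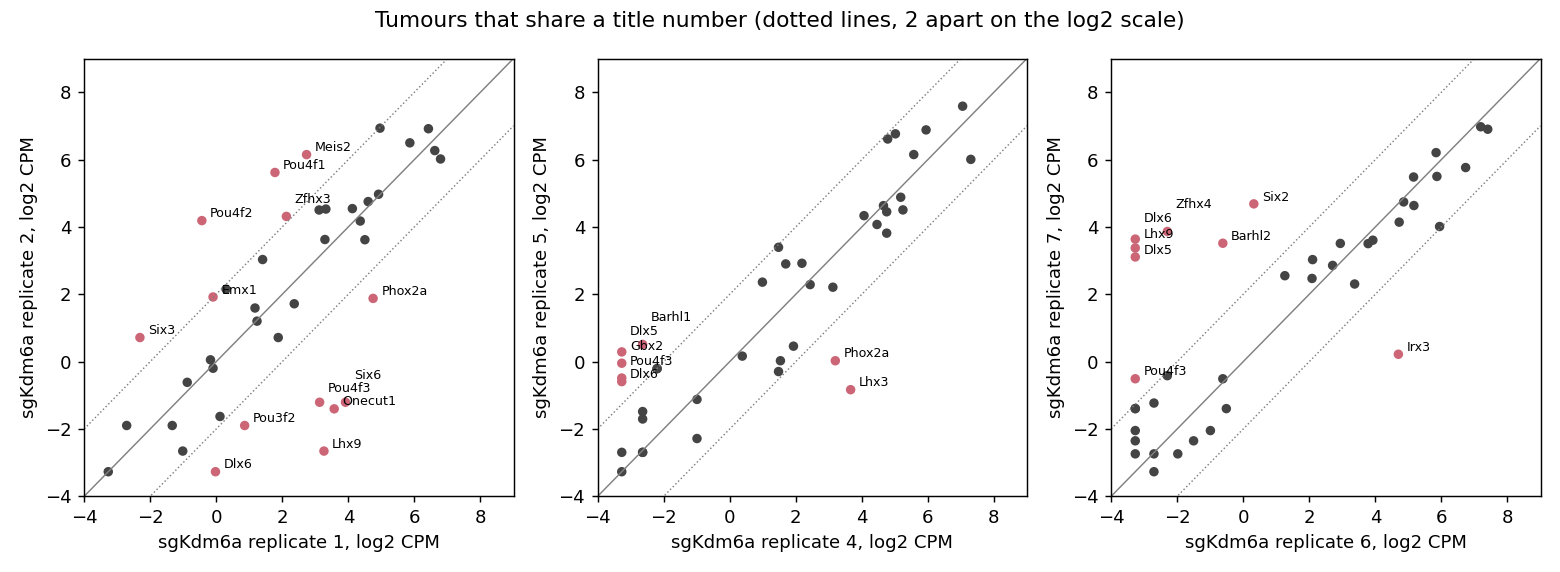
Log2 CPM (prior count 2) of the 40 genes in the 3 pairs of sgKdm6a tumours with a shared title number, 1 tumour on each axis. The solid line marks equal levels, and named red points are the 13, 7 and 8 genes beyond the dotted lines, more than 2 apart.

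Of 24 genes for partners and cofactors of these families, 23 had enough counts to be tested: TALE partners (Pknox1, Tgif1 and others), LIM adaptors and antagonists (Ldb and Lmo genes), the Eya and Dach cofactors of the sine oculis factors, and the Groucho corepressors Tle. At an unadjusted edgeR p under 0.05, 1 was higher (against 3.18% of all genes) and 1 lower (against 6.97%) in sgKdm6a tumours, 0 passed adjustment, and the median log2 fold change was -0.03. Eya4, a phosphatase that activates sine oculis proteins such as Six2, was at 0.153, 1.01 and 3.46 CPM in sgControl and at 0.274, 1.01 and 73.4 CPM in sgKdm6a tumours, a log2 fold change of 3.53 (SE 1.33; adjusted p = 0.427 in edgeR). Its peak was in sgKdm6a 3, and 3 of 7 sgKdm6a tumours lay above every control. Ldb2, which bridges LIM factors, was at 2.81, 3.65 and 54.6 CPM in sgControl, highest in tumour 6, and at 1.99, 3.08 and 6.25 CPM in sgKdm6a tumours, a log2 fold change of -1.77 (SE 0.72; adjusted p = 0.443 in edgeR). It is also an endothelial gene, and the part of the tissue content of sgControl 6 in it was not tested.

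Among 17 genes known to act downstream of, or alongside, these factors in neurons, 13 were tested, 1 was higher with p under 0.05 in edgeR before adjustment (against 3.18% of all genes) and 0 lower (against 6.97%), with a median log2 fold change of 0.08. The higher gene, named after its values were seen, was Prph, the intermediate filament peripherin of peripheral neurons. It was at 1.11, 26.4 and 41.0 CPM in sgControl and at 47.8, 141 and 362 CPM in sgKdm6a tumours, so that the groups did not overlap, as for 47 of all 16575 genes (0.284%). Its log2 fold change was 2.97 (SE 0.80), with an adjusted p of 0.419 by edgeR and 0.0133 by DESeq2, by which 65 of 15833 genes passed. The inhibitory neuron genes Gad1, Gad2 and Slc32a1 and the noradrenergic and cholinergic genes Dbh, Th, Chat and others gave no unadjusted edgeR p under 0.05 where tested.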

How the data were processed

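Bulk RNA was sequenced from 6 sgControl and 7 sgKdm6a tumours, with groups taken from the genotype label and replicates numbered in accession order. Per the labels' protocols, the libraries were non-stranded and read from both ends. STAR, DESeq2 and mm10 are named in the submitters' processing notes. Versions, the counting program and the annotation used are not given in these sources. The authors deposited raw counts per gene, which were used for all tests, and FPKM values, which were used only to compare levels between genes. The deposited counts appear in a pair of tables that differed in 0 values, and the FPKM of a tumour are scaled by a constant of 0.883 to 1.12 times its total count. Coordinates are as deposited, and those of 51 of the 52 genes match GENCODE M21; 20 of the 52 overlap a gene on the opposite strand.

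All genes were tested with edgeR 4.0.16 in R 4.3.3: filterByExpr, TMM scaling (factors 0.836 to 1.06), robust quasi-likelihood F test, Benjamini-Hochberg adjustment over all genes tested and a threshold of 0.05. The SE is the size of the log2 fold change divided by the square root of F, and log2 CPM uses a prior count of 2. For single genes, a two-sided exact permutation test covered 1716 splits (smallest possible p 5.83e-04), or 210 when tumours of 1 title number were averaged (0.00476). Scripts were tested on simulated data. Alternatives used DESeq2 1.42.0 and limma 3.58.1, other scalings and filters, terms for title number series, tissue content and Y-linked genes, summed libraries, and each tumour left out.

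The members and gene lists were chosen with earlier results of these data known, and some genes of the lists are not reported here. Values are given for genes with an unadjusted p under 0.05, the 6 of highest mean FPKM and the 6 of widest log2 CPM range among those reaching 1 CPM. Other genes are given by detection, range, peak or fold change, and some, such as Lhx3 and Zfhx3, only in the figures. Total counts of 16835726 to 22910187 per tumour set the counting precision, and the floor of 3 counts covers counting error only.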

Additional observations from a re-analysis of the deposited data

Results flagged for a closer look

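In a check of 28 groups of tumours for a lone extreme value, on 14 genes, 4 were found. Chance flags about 1 in 20 groups of normally distributed values, but some of these genes were chosen for a wide range and some values lie near 0, so that rate is no measure here. Irx2 was at 7.11 log2 CPM in sgControl 4, with the other sgControl tumours at 4.95 to 5.75. Meis2 was at 2.73 log2 CPM in sgKdm6a 1, with the other sgKdm6a tumours at 6.15 to 7.99. Pou3f2 was at 6.98 log2 CPM in sgKdm6a 3, with the other sgKdm6a tumours at -2.74 to 0.859. Six2 was at 0.319 log2 CPM in sgKdm6a 6, with the other sgKdm6a tumours at 3.11 to 4.79. The 4 values came from 4 tumours.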

How the results depend on the processing

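No paired analysis was possible because replicate numbers were given in accession order and pair no tumours across genotypes. The count of homeobox genes past an adjusted p of 0.05 was 0 under every alternative run. Over all genes it was 65 with DESeq2 and 0 in the other fits.

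The number of homeobox genes higher in sgKdm6a tumours at an unadjusted p under 0.05 was 8 with no filter and 1 with title numbers summed, with limma-voom and a correlation within title numbers, and with limma-trend on log2(FPKM + 1) or log2(FPKM + 0.1). Leaving out 1 tumour at a time gave 0 (without sgKdm6a 1) to 4 (without sgControl 4). The number lower was 0 in the edgeR fit of all tumours, 1 in the higher title series alone and with the Y-linked term, 2 with DESeq2, with no filter, with limma-voom and with log2(FPKM + 0.1), and 3 in the lower series alone and with log2(FPKM + 1). The 2 lower with limma-voom and with log2(FPKM + 0.1) were Irx3 and Six5. The number lower was 0 to 3 with 1 tumour left out. Over all genes, the number with an unadjusted p under 0.05 in either direction was 1683, and it became 859 with limma-voom, 884 in the lower series alone, 929 summed by title number, 1043 with log2(FPKM + 1), 1093 with the Y-linked term and 3262 with no filter. It was 932 (without sgControl 6) to 1938 (without sgControl 4) with 1 tumour left out. With title numbers averaged, 1 of the 14 genes had an exact p under 0.05, in place of 2.

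Among the named genes, the log2 fold change turned in sign as follows. In the lower series alone, Dlx5 was at -3.12, Dlx6 at -2.45, Irx1 at 0.20, Lhx2 at -0.46 and Phox2a at -0.34. With the term for tissue content, Dlx5 was at -2.36, Dlx6 at -0.83, Irx1 at 0.27, Lhx2 at -0.37 and Phox2a at -0.34. With the Y-linked term, Irx2 was at -0.64, Lhx1 at 3.35 and Six2 at 0.58. The higher series alone gave 6.80 for Lhx1 and 1.20 for Six2, and the series term 4.36 and 0.39. Lhx1 was also above 0 summed by title number (0.59), with limma-voom (1.54) and with limma-trend (0.25 at log2(FPKM + 1), 0.93 at log2(FPKM + 0.1)). Leaving out 1 tumour at a time gave -1.95 to 0.78 for Lhx1, -0.19 to 0.44 for Lhx2, -0.38 to 0.13 for Meis2 and -0.22 to 0.27 for Six2. The difference of mean log2 CPM of Pou3f2 was 0.54 with title numbers averaged and 0.0025 at a prior count of 0.5. The exact p of Meis1 with title numbers averaged was 0.0667, at a difference of 1.06.

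The cause of these differences was not tested. Of the counts recomputed, 103 stayed within 1.5 times the main count and 31 did not. The 103 include the counts at an adjusted p of 0.05 that were 0 in both fits compared. Of the gene values, 289 kept their sign and their side of the threshold, 40 turned in sign and 1 lost its exact p under 0.05. For log2 fold changes that threshold is an adjusted p of 0.05, which no named gene passed in any fit. Genes near 0 CPM in most tumours, such as Dlx5, Dlx6 and Pou3f2, are limited by the number of tumours that express them.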
